A study of Mus musculus with 12 samples.

Results

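The 7 genes described here encode liver enzymes that break down amino acids or move their amino groups: Tat, Hpd, Tdo2, Sds, Gpt, Gpt2 and Got1. Sites of glucocorticoid receptor (GR) binding were assigned to a gene when the centre of a peak lay inside its mm10 span or within 50 kb of it. By that rule 41 binding regions belonged to the 7 genes, out of 47493 regions in the whole series, and the 7 genes were compared with all 21887 protein-coding genes.

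Chromatin immunoprecipitation with a rabbit antibody to GR was followed by sequencing (ChIP-seq) in BWTG3 cells, a mouse hepatoma line. All cells were kept without serum for 24 h in Optimem medium. Cells labelled NI (3 libraries) were those whose titles name neither agent. DEX cells (3 libraries) received 1 µM dexamethasone, a synthetic glucocorticoid, TNF cells (2 libraries) received 1000 U/ml of the inflammatory cytokine tumour necrosis factor, and TNFDEX cells (3 libraries) received TNF 1 h before dexamethasone, with 3 h of stimulation in total. Every group is the same single hepatoma line, and binding alone was measured, so neither the hepatocyte identity of the cells nor the RNA of the 7 genes could be checked from these libraries. The design text calls the replicates biological.

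The libraries held 39228805 to 51141996 tags, and their peak lists held 2524 to 22590 peaks. Lists were 2524 to 6502 peaks long in NI, 10480 to 13021 in DEX, 4132 and 8943 in TNF, and 8641 to 22590 in TNFDEX. A list gives a value only where a peak was called, so a missing value is an unknown level below the calling limit and not a level of 0; the lowest values in the lists ran from 5.4 to 6.6 tags per 20000000. The lists fell into 2 kinds that cross the groups: 5 of them (NI3, DEX3, TNF2, TNFDEX2 and TNFDEX3) held 2 peaks on the mitochondrial chromosome, with 0.355% to 0.541% of all tags there, and 6 held 1 such peak with 0.0064% to 0.0348%. Signals are given below as normalized tag counts, the authors' number of tags in a peak scaled to a library of 20000000, and library names join the group and the replicate number.

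GR is a nuclear receptor that enters the nucleus when it binds a glucocorticoid and then attaches to DNA at response elements or through other factors. In liver, glucocorticoids are known to raise the enzymes that turn amino acids into fuel and glucose precursors during fasting and stress. Tat, tyrosine aminotransferase, is a textbook example of a glucocorticoid-induced gene and carries out the first step of tyrosine breakdown; Hpd, hydroxyphenylpyruvate dioxygenase, carries out the next. Tdo2, tryptophan dioxygenase, opens the kynurenine pathway of tryptophan breakdown, Sds (serine dehydratase) makes pyruvate from serine, and Gpt, Gpt2 and Got1 are the cytosolic and mitochondrial alanine aminotransferases and the cytosolic aspartate aminotransferase.

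The upstream sequence of Got1 is shown because its promoter region, centred 0.3 kb before the start, had the second highest mean DEX signal of the regions at the 7 genes. The 250 bases before the Got1 start in RefSeq (GRCm38.p6, chr19:43524606-43524855, minus strand) are written 5′ to 3′. Capitals mark the 98 bases that lie inside the merged binding region, which extends further upstream than this window.
Got1: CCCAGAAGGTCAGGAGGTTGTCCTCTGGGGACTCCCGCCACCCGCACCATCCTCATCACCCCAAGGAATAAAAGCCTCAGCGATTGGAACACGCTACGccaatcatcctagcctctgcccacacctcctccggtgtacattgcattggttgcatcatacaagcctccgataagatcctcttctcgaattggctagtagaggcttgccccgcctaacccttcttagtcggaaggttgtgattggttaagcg
The peak centres sat 357, 359 and 333 bp before the start in DEX1, DEX2 and DEX3, 346, 333 and 293 bp before it in the 3 TNFDEX libraries, and 226 bp before it in TNF1. Only 3 of these 7 peaks reached into the 250 bases: the TNF1 peak by 98 bases, the TNFDEX3 peak by 46 and the DEX3 peak by 4.
RefSeq upstream sequences were matched for 5 of the 7 genes (Tat, Tdo2, Hpd, Gpt2 and Got1) and were searched on both strands. The palindromic glucocorticoid response element, AGAACA and TGTTCT with any 3 bases between them, was in none of the 5, against 0.00913% of 32851 upstream windows of 250 bases. Its single arm AGAACA, which is part of that palindrome, was in none of the 5 and in 16.1% of all windows. The AP-1 motif TGANTCA was in 1 of the 5, Hpd, against 6.75% of all windows, and the NF-kB motif, GGGA and TTTCC with any 1 base between them, was in none of the 5, against 0.356%. A match describes letters in this window only, and most of the binding described below lay outside it.

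All 7 genes had GR peaks within 50 kb in cells given dexamethasone. With each peak given to its nearest gene only, Sds and Tdo2 had none. A gene was taken as bound in a group when 2 or more of its libraries shared a region there; this held for 7 of the 7 genes in DEX and 7 in TNFDEX, and for 36.5% and 39.4% of all protein-coding genes. In NI, 2 of the 7 were bound (Tdo2 and Hpd), against 14.8% of all genes, and in TNF none was, against 6.08%. The NI region counted for Tdo2 lay nearer to Ctso, and that counted for Hpd lay inside Psmd9. The number of peaks at the 7 genes together was 3, 7 and 3 in the NI libraries, 15, 13 and 13 in DEX, 8 and 1 in TNF, and 24, 14 and 19 in TNFDEX. Every library with dexamethasone held more peaks at these genes than every library without it, but the lists with dexamethasone, except that of TNFDEX2, were also longer than every list without it. As a share of each list the peaks at the 7 genes made up 0.0551%, 0.108% and 0.119% in NI, 0.143%, 0.0998% and 0.1% in DEX, 0.0895% and 0.0242% in TNF, and 0.106%, 0.162% and 0.135% in TNFDEX, and by this measure libraries with and without dexamethasone overlapped.

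The dexamethasone sites called most regularly were 5 regions, 1 each at Tat, Hpd, Gpt, Gpt2 and Got1, called in 6 of 6 libraries with dexamethasone and in 0 of 5 without it. These were the ones that passed an exact two-sided permutation test of calls, in which the dexamethasone label was exchanged within cells with and within cells without TNF over 200 arrangements, with Benjamini-Hochberg adjustment at 0.05 over all 13526 regions called in at least 3 libraries. Of 17 regions at the 7 genes that were tested, 5 passed as called more often with dexamethasone (29.4%), where 17.8% of all tested regions passed, and none of either set was called less often (0.0%). The smallest p this design allows is 0.005, which gave each of the 5 an adjusted p of 0.0281. With labels exchanged only between libraries of the same replicate number, the smallest p of this exact test was 0.0625 and none of the 5 passed (adjusted p = 0.349). TNFDEX3, which has no TNF library of its number, did not enter that run. In a separate run, exchange was kept within libraries of the same mitochondrial kind instead, and none passed (exact p = 0.0139, adjusted p = 0.0782). Leaving out any 1 NI, TNF or TNFDEX library also left none past the threshold (smallest adjusted p from 0.0532 to 0.081), with the calls at the 5 regions still complete on one side and absent on the other. In each of these runs, and in both restricted exchanges, 0.0% of all tested regions passed.

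**Figure D1:**
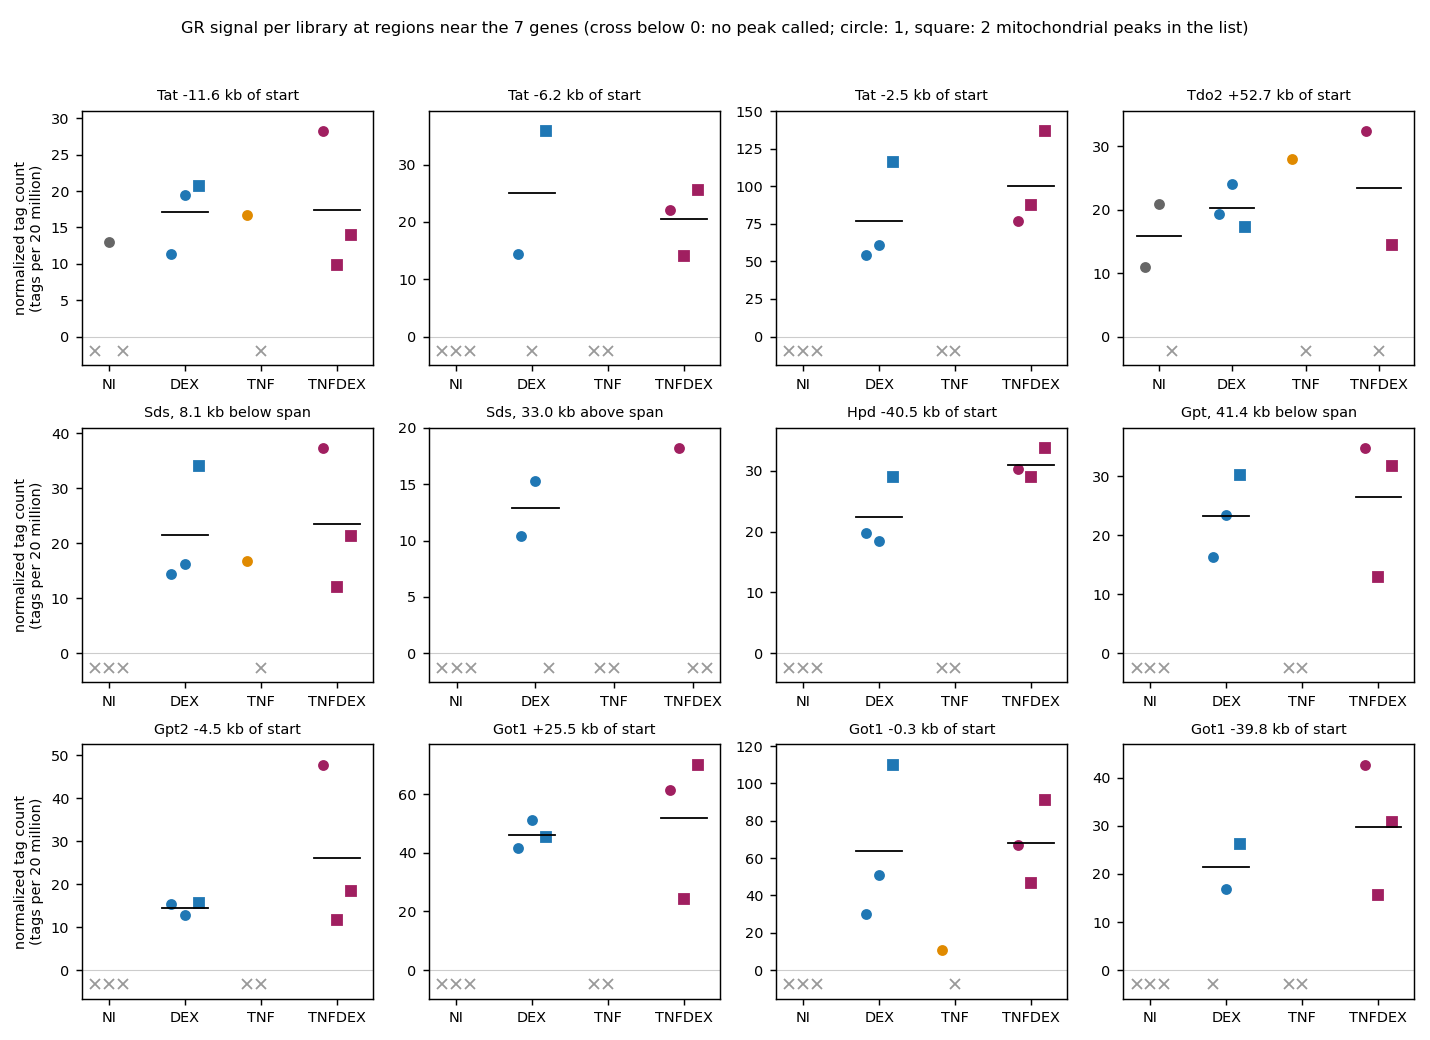
Normalized tag count (tags per 20000000, linear axis) in each of the 11 libraries for the 12 regions at the 7 genes called in at least 2 DEX libraries. Circles are libraries with 1 mitochondrial peak, squares libraries with 2, crosses below 0 mark libraries with no call, and black lines are means of the calls in a group; the region 2.5 kb before the Tat start reaches 136.5 and has crosses in all 5 libraries without dexamethasone.

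Tat carried the strongest GR binding of the 7 genes, at a region 2.5 kb before its start site (chr8:109987853-109988052, mm10). The region lies inside the gene's RefSeq span, which begins 4.4 kb before the start site used here, and exons were not given in the annotation used. Its normalized tag counts were 54.5, 61.2 and 115.9 in DEX (77.2 ± 33.7, SD, n = 3) and 76.7, 87.6 and 136.5 in TNFDEX (100 ± 31.8, n = 3), and it was not called in any NI or TNF library. The DEX values rest on 110, 120 and 269 tags, with 95% Poisson intervals of 44.8 to 65.7, 50.7 to 73.2 and 102 to 131 that cover counting error only. DEX1 and DEX2 thus overlapped within counting error, and DEX3 stood above both. The 3 libraries with 2 mitochondrial peaks (115.9, 87.6 and 136.5) were all above the 3 with 1 (54.5, 61.2 and 76.7), and its part in these values was tested only for TNFDEX against DEX, below. Among 9286 regions called in at least 2 DEX libraries, this one ranked 530 by mean DEX signal, so that 5.7% were stronger, and the median was 18.3.

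Further upstream, Tat had 2 weaker regions that were called less regularly. The region 6.2 kb before the start (chr8:109984147-109984335) was called at 14.4 in DEX1 and 35.8 in DEX3 and missed in DEX2, and at 22.0, 14.1 and 25.5 in TNFDEX (20.5 ± 5.84, n = 3). It was called in 5 of 6 libraries with dexamethasone and 0 of 5 without, which did not pass the permutation test (exact p = 0.02, adjusted p = 0.066). The region 11.6 kb before the start (chr8:109978711-109978986) had 11.4, 19.4 and 20.7 in DEX (17.2 ± 5.04, n = 3) and 28.2, 9.8 and 14.0 in TNFDEX (17.3 ± 9.64, n = 3). It was also called at 13.0 in NI2 and 16.7 in TNF1, within the range of the libraries with dexamethasone (exact p = 0.08, adjusted p = 0.176). The 3 upstream regions at Tat therefore differed among themselves: the nearest to the start was the strongest, and calls without dexamethasone were found at the farthest.

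**Figure D2:**
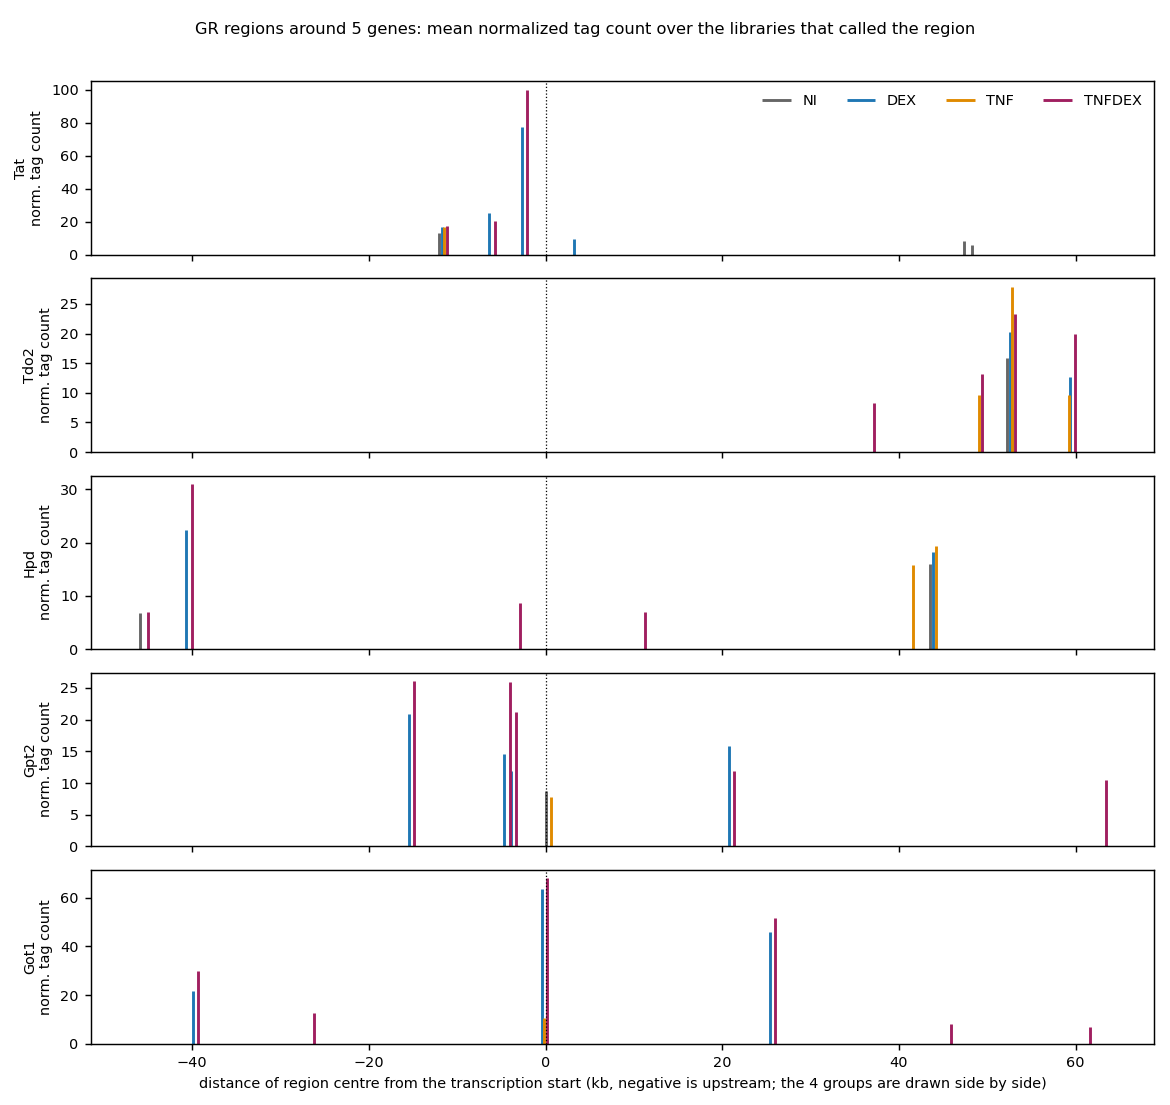
Position of the GR regions around the start sites of the 5 genes with a RefSeq start (Tat, Tdo2, Hpd, Gpt2 and Got1), as distance from the start in the direction of transcription, in kb. Line height is the mean normalized tag count of the libraries of a group that called the region, coloured by group; at Tat the tallest lines lie 2.5 kb upstream, and at Got1 tall lines lie near the start and near the other end of the gene.

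At Hpd, whose enzyme acts directly after that of Tat, the region that passed lay 40.5 kb before the start (chr5:123223137-123223341), 5.0 kb from Psmd9, a proteasome assembly factor gene nearer to it than Hpd. Normalized tag counts were 19.8, 18.4 and 28.9 in DEX (22.4 ± 5.7, n = 3) and 30.3, 28.9 and 33.7 in TNFDEX (31.0 ± 2.47, n = 3). DEX and TNFDEX met at 28.9 and otherwise did not overlap; the test of that difference is given below. A second region, 45.5 kb before the Hpd start and inside Psmd9 (chr5:123228157-123228370), was called at 5.9 in NI1, 7.7 in NI2 and 7.0 in TNFDEX3 and in no DEX library, close to the lowest values of the lists. It did not differ with dexamethasone in the test (exact p = 0.92, adjusted p = 1.0). Within the Hpd gene itself there was 1 call, at 7.0 in TNFDEX2.

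At Tdo2 the region called most often was bound with and without dexamethasone, in 3 of 5 libraries without it and 5 of 6 with it; the regions called most often at Tat, Sds and Got1 also had calls without it, in 2, 1 and 1 of 5 libraries. The Tdo2 region, 52.7 kb past the start (chr3:81922912-81923137), 35.4 kb beyond the gene span and 9.6 kb from Ctso (a cathepsin gene), had normalized tag counts of 10.9 and 20.8 in the 2 NI libraries that called it, and 27.9 in TNF1. It had 19.3, 24.0 and 17.2 in DEX (20.2 ± 3.48, n = 3), and 32.3 in TNFDEX1 and 14.4 in TNFDEX3. The values with and without dexamethasone overlapped, and calls did not differ (effect of 0.25 in the share of libraries, exact p = 0.55, adjusted p = 0.706). A region 48.9 kb past the start (chr3:81926746-81926963) was called at 9.6 in TNF1, 17.0 in TNFDEX1 and 9.5 in TNFDEX3, and one 36.7 kb past the start, inside Ctso (chr3:81938971-81939147), at 9.1 in TNFDEX1 and 7.4 in TNFDEX3. Neither was called in a library without TNF, and TNFDEX2 had no peak at Tdo2 at all. No region lay inside Tdo2 or upstream of it.

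Sds had 4 regions called in at least 2 libraries of a group, all outside the gene. The one called most often lay 8.1 kb below the span inside Sdsl, a paralogue of Sds (chr5:120468296-120468565), with 14.4, 16.3 and 34.0 in DEX (21.6 ± 10.8, n = 3) and 37.3, 12.1 and 21.4 in TNFDEX (23.6 ± 12.7, n = 3). A call of 16.7 in TNF1 left it at 6 of 6 against 1 of 5, short of the threshold (exact p = 0.02, adjusted p = 0.066). A second region in Sdsl, 4.9 kb below the Sds span (chr5:120471539-120471843), was called at 8.7 in NI2, 28.9 in DEX3, and 16.6, 16.4 and 20.1 in TNFDEX (17.7 ± 2.08, n = 3; adjusted p = 0.286 by the exact permutation test).
On the other side, inside Slc8b1, a mitochondrial sodium and calcium exchanger gene, 1 region was called in the 3 TNFDEX libraries and in no other. It lay 30.6 kb above the Sds span (chr5:120514456-120514688) with 17.0, 12.5 and 17.3 (15.6 ± 2.69, n = 3), and neither the dexamethasone effect (exact p = 0.1) nor the TNF effect (exact p = 0.1, adjusted p = 1.0) passed. Its neighbour 33.0 kb above the span (chr5:120516884-120517079) was called at 10.4 in DEX1, 15.3 in DEX2 and 18.2 in TNFDEX1, 3 libraries that each have 1 mitochondrial peak. With exchange kept within libraries of the same mitochondrial kind, the dexamethasone difference in calls at this neighbour was 0.5 (exact p = 0.167, adjusted p = 0.302). The part of the split itself in these calls was not tested.

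Among the alanine aminotransferase genes, Gpt had its passing region 41.4 kb below the span, inside Cyhr1 (chr15:76655260-76655463). Its values were 16.4, 23.5 and 30.2 in DEX (23.4 ± 6.9, n = 3) and 34.8, 12.9 and 31.7 in TNFDEX (26.5 ± 11.9, n = 3), and the groups overlapped. Nearer to Gpt, 0.5 kb from its span, a peak was called in TNFDEX1 alone, at 11.2. Gpt2 had its passing region 4.5 kb before the start (chr8:85487962-85488171), with 15.4, 12.7 and 15.5 in DEX (14.5 ± 1.59, n = 3) and 47.7, 11.7 and 18.5 in TNFDEX (26.0 ± 19.1, n = 3). The wide spread in TNFDEX came from TNFDEX1, with 115 tags and a Poisson interval of 39.4 to 57.2, while TNFDEX2 (7.92 to 16.7) lay with the DEX libraries. A weak region 0.5 kb past the Gpt2 start was called in NI3 at 8.7 and TNF2 at 7.8 and in no library with dexamethasone.

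Got1 had 3 regions called in at least 2 DEX libraries, the same number as Tat and the most of the 7 genes. At the end of the gene away from its start, 25.5 kb past it and 0.6 kb beyond the span, a region (chr19:43499046-43499251) had 41.6, 51.0 and 45.2 in DEX (45.9 ± 4.74, n = 3) and 61.4, 24.2 and 69.9 in TNFDEX (51.8 ± 24.3, n = 3). It passed with 6 of 6 against 0 of 5, and TNFDEX2 was its lowest library. The promoter region shown above, 0.3 kb before the start (chr19:43524758-43525049), had 30.2, 51.0 and 109.9 in DEX (63.7 ± 41.3, n = 3) and 67.2, 46.5 and 90.9 in TNFDEX (68.2 ± 22.2, n = 3). A call of 10.6 in TNF1, resting on 21 tags, was below every library with dexamethasone. With 6 of 6 against 1 of 5 the promoter region did not pass (exact p = 0.02, adjusted p = 0.066), although 7.7% of the 9286 DEX regions were stronger. The same permutation test called the promoter region in 3 of 19 settings. These were peaks at least 8-fold over input (adjusted p = 0.0268), the 2524 strongest peaks of each list (0.0193) and regions called in at least 5 libraries (0.0376). Of all tested regions, 18.7%, 25.9% and 53.2% passed in those settings. DEX3, one of the libraries with 2 mitochondrial peaks, held the highest promoter value and DEX1 the lowest, a spread wider than counting error (96.8 to 124 against 23.1 to 38.8). Another region, 39.8 kb before the start (chr19:43564288-43564495), had 16.8 in DEX2, 26.3 in DEX3, and 42.7, 15.6 and 30.8 in TNFDEX (29.7 ± 13.6, n = 3), with 5 of 6 against 0 of 5 (exact p = 0.02, adjusted p = 0.066).

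Ranked by the mean DEX signal of the strongest region of each gene, Tat (77.2) and Got1 (63.7) came first. Gpt (23.4), Hpd (22.4), Sds (21.6), Tdo2 (20.2) and Gpt2 (14.5) followed, with 36.0%, 38.5%, 40.5%, 44.2% and 65.7% of DEX regions stronger. Tat and Got1 did not differ beyond their spread (SD 33.7 and 41.3), and the values of Gpt, Hpd, Sds and Tdo2 all overlapped. Of the 17 regions called in at least 2 libraries of a group, 10 lay nearest to another protein-coding gene, so assignment to the 7 genes rests on distance alone at those. The other 24 regions were called more rarely, 18 of the 41 in 1 library only, of which 5 were in TNFDEX1, the library with the longest list. In the whole series 19226 of 47493 regions were called in at least 2 libraries, against 23 of the 41 here. Dexamethasone libraries called 33 of the 41 regions, and 8 were called without dexamethasone only. That split was not counted over all regions, and libraries with dexamethasone were more numerous (6 against 5) and mostly had longer lists.
The 50 kb limit left the Gpt region at 41.4 kb and the Hpd region at 45.5 kb inside. The nearest regions outside it were 56.8 kb from Got1 (DEX 10.4 ± 2.17, n = 3, also 11.6 in NI2 and 16.7 in TNF1), 58.5 kb from Gpt2 and 61.2 kb from Hpd.

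**Figure D3:**
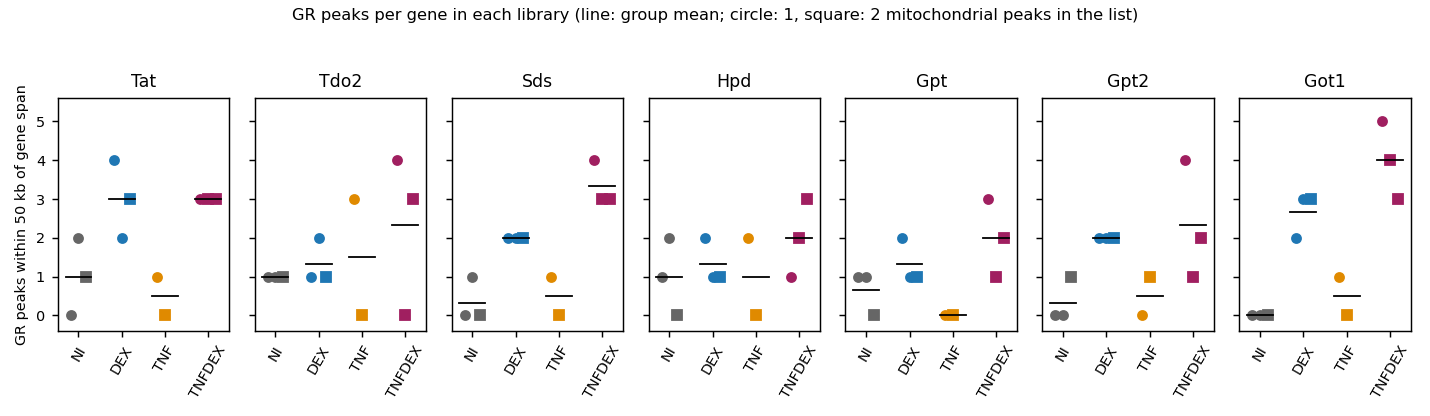
Number of GR peaks with centre inside or within 50 kb of each of the 7 genes, 1 point per library, by group, with a bar at each group mean. Got1 has no peak in the NI libraries and 2 to 5 in the libraries with dexamethasone; Tdo2 overlaps between groups.

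Counted per gene, peaks at Got1 numbered 0, 0 and 0 in NI, 2, 3 and 3 in DEX, 1 and 0 in TNF, and 5, 4 and 3 in TNFDEX. Dexamethasone added 3.08 peaks on average within the TNF strata, with no overlap between libraries with and without it (exact p = 0.005, adjusted p = 0.115). At Sds the numbers were 0, 1 and 0 in NI, 2, 2 and 2 in DEX, 1 and 0 in TNF, and 4, 3 and 3 in TNFDEX, a difference of 2.25, again without overlap (exact p = 0.005, adjusted p = 0.115). For both genes p was the smallest that the 200 arrangements allow, and the share of all genes without overlap was not counted. Tat had 0, 2 and 1 in NI, 4, 2 and 3 in DEX, 1 and 0 in TNF, and 3 in each TNFDEX library (difference 2.25, exact p = 0.01, adjusted p = 0.14). Gpt2 gained 1.75 peaks on average (exact p = 0.015), Gpt 1.33 (exact p = 0.06), Hpd 0.667 (exact p = 0.315) and Tdo2 0.583 (exact p = 0.6). The Gpt value turned on the window, with 0.167 (exact p = 0.92) at 20 kb and 3.33 (exact p = 0.01) at 100 kb. When each list was limited to its 2524 strongest peaks, the length of the shortest, the Tat difference was 0.833 (exact p = 0.03), that of Got1 was 2.0 (exact p = 0.005), and those of Tdo2, Hpd, Gpt and Gpt2 were below 0 (-0.75, -0.25, -0.167 and -0.25).
None of the 7 genes passed after adjustment, and neither did any of the 17542 genes with a peak (0.0%) by this permutation test, whose smallest adjusted p was 0.115. At an unadjusted p under 0.05, 4 of the 7 were higher with dexamethasone, and 16.4% of all genes with a peak were. The median difference was 1.75 peaks over the 7 genes and 0.333 over all genes. By the test of single regions, 5 of the 7 genes (71.4%) had a region that passed, against 13.3% of all protein-coding genes. Since the genes were chosen with earlier results of these libraries known, these shares describe the genes and are no test of them.

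TNF on top of dexamethasone left GR signal at these genes without a detected change. Only regions called in every library of both groups could be compared by level, which were 8 at the 7 genes and 4023 in all, with limma on log2 normalized tag counts after TMM scaling, a trimmed mean that sets the middle of all shared regions equal and here removed a shift of 0.137. Of the 8, none passed in either direction, against 1 of 4023 regions higher (0.0249%) and none lower, and 260 of 4023 had an unadjusted p under 0.05, none of them at these genes. The largest log2 difference was at the Gpt2 region, 0.45 with a standard error of 0.333 and a 95% interval of -0.297 to 1.2 (limma adjusted p = 0.818). At Hpd it was 0.356 (-0.364 to 1.08), at the Tat region 2.5 kb before the start 0.276 (-0.556 to 1.11), and at the Got1 promoter 0.109 (-0.657 to 0.875). Without TNFDEX1 the Gpt2 difference was 0.14, that of Hpd 0.626 (-0.055 to 1.31) and that of the same Tat region 0.703 (0.0859 to 1.32, limma adjusted p = 0.353), and without TNFDEX2 those of Hpd and Tat were 0.0699 and 0.0161.
The remaining 4 were below 0: Gpt at -0.0428 (-0.545 to 0.46), Sds at -0.0477 (-0.659 to 0.563), the far Got1 region at -0.101 (-0.711 to 0.508) and the Tat region 11.6 kb before the start at -0.22 (-0.805 to 0.364). At Gpt, Sds and the far Got1 region the sign flipped to above 0 with library totals in place of TMM scaling (0.0967, 0.0918 and 0.0384). In the fit to all 6 libraries each of the 8 intervals includes both a rise and a fall, so these data do not show that TNF had no effect. On simulated data of the same size, changes of 2-fold were recovered in 8% of cases and of 4-fold in 73%. The simulated noise was taken from values before scaling. At the 8 regions the standard error was 0.542 with library totals and 0.224 to 0.37 after TMM scaling. These rates therefore do not give the sensitivity of the fit above. With the mitochondrial kind as a term, the Tat difference was -0.0163, the Got1 promoter difference -0.17 and the Gpt2 difference 0.668, with an interval of 0.143 to 1.19 that lies above 0 (limma adjusted p = 0.257).

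**Figure D4:**
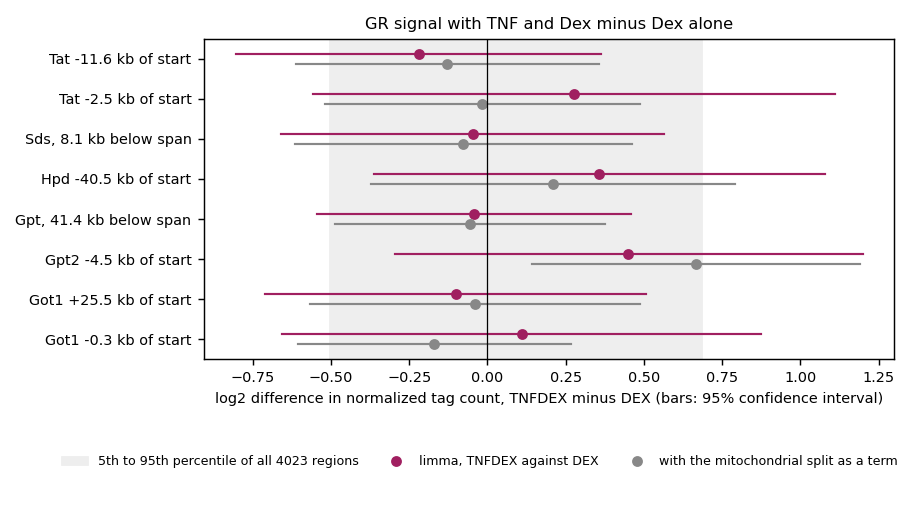
Log2 difference in normalized tag count between TNFDEX and DEX (3 libraries each) at the 8 regions called in all 6 libraries, with 95% intervals from limma, and the same with the mitochondrial kind as a term. The grey band spans the 5th to 95th percentile of all 4023 regions (-0.503 to 0.685), and all 8 values from the fit without that term lie inside it.

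By calls, none of the 17 tested regions passed for TNF in the exact permutation test (0.0% of all 13526 in either direction), and none of the 17 had an unadjusted p under 0.05. This does not show that TNF left the calls unchanged. By peaks per gene the TNF effect was smallest in p at Got1, with 0.917 more peaks (exact p = 0.06, adjusted p = 1.0), and 135 of 17542 genes were higher and 23 lower at an unadjusted p under 0.05. With TNF alone, TNF1 had peaks at 5 of the 7 genes and TNF2 at 1, and these libraries differ in list length and in mitochondrial kind. No region at the 7 genes was called in every library of NI, or of TNF. With all libraries kept, levels in DEX and NI, TNF and NI, or TNFDEX and TNF therefore could not be compared at these genes. Without NI3, DEX could be compared with NI at the main Tdo2 region only. The log2 difference there was -0.153, with an interval of -0.696 to 0.39 (limma adjusted p = 0.668). Of all 1024 regions in that run, 116 were higher and 26 lower in DEX. The run of TNFDEX against TNF without TNF2 is given below.

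Beyond the 7 genes, 59 further genes of amino acid breakdown were examined as a listed set. Sdsl is among them, so the regions inside Sdsl count for it as well as for Sds. Of these, 22 (37.3%) had a region called in at least 2 DEX libraries, 23 (39.0%) in TNFDEX, 8 (13.6%) in NI and 4 (6.78%) in TNF, close to the shares of all protein-coding genes given above. In 8 of the 59 (13.6%) a region passed for dexamethasone: Shmt1, Pcca, Agxt2, Prodh, Gldc, Ahcy, Dao and Ido2. None passed for less frequent calls or for TNF. The strongest lay 6.4 kb from Ahcy, the hydrolase of S-adenosylhomocysteine (chr2:155052769-155052957), with 296 ± 49.7 in DEX and 342 ± 99.5 in TNFDEX (n = 3 each), higher than any region at the 7 genes; the agouti gene, a, is nearer to it. A region inside Gldc, the glycine decarboxylase of the glycine cleavage system, had 88.5 ± 24.9 in DEX and 105 ± 34.3 in TNFDEX. A region at Pcca, a subunit of propionyl-CoA carboxylase, had 20.3, 18.4 and 174.5 in DEX, so that DEX3 alone set its mean of 71.1. Next in mean DEX signal was a region inside Agxt2, with 51.9 ± 24.3 in DEX and 52.7 ± 21.5 in TNFDEX and no call without dexamethasone. At Oat, ornithine aminotransferase, the strongest region had 41.6 ± 18.1 in DEX but also 38.6 and 51.2 in NI and 76.5 and 16.1 in TNF, a pattern of binding without dexamethasone like that of the Tdo2 region (exact p = 1.0).

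The regions whose signal followed the Tat region 2.5 kb before the start most closely, among 2399 regions with the same pattern of calls on other chromosomes or over 1 Mb away, were 1 inside Tnks (chr8:34951476-34951685, Pearson r = 0.995), 1 lying 0.8 kb from Cit (chr5:116009634-116009823, r = 0.991) and 1 lying 45.1 kb from Slc5a3 (chr16:92013166-92013360, r = 0.991). These correlations of log2 values describe 6 libraries that share the mitochondrial split, and the median r of all candidates with the Tat region was 0.53. The region near Cit was stronger than that of Tat, with 102 ± 81.5 in DEX and 134 ± 59.0 in TNFDEX (n = 3 each), whereas those at Tnks (43.8 ± 26.3 and 55.9 ± 23.2) and Slc5a3 (33.4 ± 22.2 and 43.9 ± 19.4) were weaker.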

How the data were processed

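GR ChIP-seq peak lists of 11 libraries (3 NI, 3 DEX, 2 TNF, 3 TNFDEX) were used; the 1 input sample was not analysed here. CASAVA 1.8, Bowtie 1.0.0 and HOMER 4.6 are named in the submitters' processing notes. Per the file headers, the authors called peaks in each library with HOMER, against input, at a false discovery rate of 0.001, with 4-fold enrichment over input and over the local 10000 bp and a Poisson p-value of 0.0001. Per the file headers, the normalized tag count is a signal per 20000000 tags, so that libraries of 39228805 to 51141996 tags are on one scale. The deposited fold ratio over input was used for the 8-fold alternative only; the deposited focus ratio (a fraction), findPeaks score and other p-value columns entered no test.

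Peaks sharing at least 1 bp were merged into regions. Gene spans came from RefSeq (GRCm38.p6, the coordinates of mm10), and upstream sequences from RefSeq of the same build. The 7 genes and all lists were chosen with earlier results of these data known. All 7 genes are described; a region is named where at least 2 libraries of a group called it, and rarer ones are given by counts or in passing. Calls and peaks per gene were tested by exact two-sided permutation within strata of the other agent, and log2 signal by limma 3.58.1 in R 4.3.3 with TMM scaling (computed directly) and no pseudocount, each with Benjamini-Hochberg adjustment over all regions or genes. Tag numbers behind the Poisson intervals were recovered from normalized tag counts and library totals, and lay within 0.15 of whole numbers. Limma was tested on simulated data.

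Same-numbered libraries deviated together for NI and DEX (r = 0.52, 0.54 and 0.68 over 179 regions) and for TNF and TNFDEX (0.51 and 0.45 over 508 regions). The main tests did not pair the libraries, and the numbers entered only as the replicate block among the alternatives. Each of these pairs also shared its mitochondrial kind, and pairs of one kind with different numbers were positive too (0.49 for NI1 and DEX2, 0.33 for TNF2 and TNFDEX3). DEX and TNFDEX did not pair by number (0.37, -0.37 and 0.58 over 4023 regions): the same-numbered pair of different kinds, DEX2 and TNFDEX2, was negative, and DEX2 with TNFDEX1, of one kind, had 0.55. The correlation followed the mitochondrial kind rather than the number. Alternatives were other windows, merging rules, thresholds, list lengths and scalings, the replicate block, the mitochondrial kind and leaving out each library.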

Additional observations from a re-analysis of the deposited data

How the results depend on the processing

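The number of regions at the 7 genes that passed for dexamethasone was 5. It was 3 when each list was limited to its 2524 strongest peaks, with 4 regions left to test (25.9% of all tested regions passed), and 9 of 12 when only regions called in at least 5 libraries were tested, where 53.2% of all tested regions passed. It was 0 with the replicate block and 0 within mitochondrial kinds, where fewer arrangements raise the smallest p. In both of these runs 0.0% of all tested regions passed. Leaving out each library gave 0 to 6. The count was 0 without each NI, TNF or TNFDEX library, where 0.0% of all tested regions passed. It was 5 or 6 without a DEX library, where 20.3% to 21.6% passed. Merging by centres gave 5 (18.2% of all tested regions passed), an 8-fold threshold 6 (18.7%) and a minimum of 2 libraries 5 (12.5%).

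For TNFDEX against TNF, leaving out each library gave 0 to 1 region past the threshold: without TNF2 the Got1 promoter could be tested, at a log2 difference of 2.12 (SE 0.42, limma adjusted p = 0.00191), with TNF1 as the lone TNF library, assumed to vary like the TNFDEX libraries. In that run the Sds region 8.1 kb below the span (-0.165, adjusted p = 0.77) and the Tat region 11.6 kb before the start (-0.605, adjusted p = 0.243) did not pass, and 312 of all 1800 regions were higher and 240 lower.

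Over all alternatives the dexamethasone difference in peaks per gene ran from 0.833 to 2.58 at Tat, 0.917 to 2.58 at Sds (which had no value with the 2524 strongest peaks or with peaks given to the nearest gene only), 1.75 to 3.33 at Got1, -0.25 to 1.5 at Hpd, -0.167 to 3.33 at Gpt and -0.25 to 2.33 at Gpt2. With the 2524 strongest peaks, the dexamethasone difference in peaks per gene turned to -0.75 at Tdo2, -0.25 at Hpd, -0.167 at Gpt and -0.25 at Gpt2. Leaving out each library it ran from -0.167 (without TNF2) to 1.33 at Tdo2, which had no value with peaks given to the nearest gene only. The difference in calls at the main Tdo2 region was -0.583 with the strongest peaks and -0.0833 at 8-fold, and at the Tdo2 region 48.9 kb past the start it ran from -0.167 (without TNF2) to 0.25 when each library was left out. None of these passed after adjustment. Log2 differences between TNFDEX and DEX that changed sign were, with library totals, 0.0967 (Gpt), 0.0384 (far Got1 region) and 0.0918 (Sds); with the mitochondrial term, -0.17 (Got1 promoter) and -0.0163 (Tat); and, leaving out each library, -0.162 to 0.417 at the Got1 promoter, -0.211 to 0.148 at Sds, -0.139 to 0.0774 at Gpt and -0.298 to 0.0432 at the far Got1 region. The cause was not tested. Over all 4023 regions, 1 region passed for TNFDEX against DEX; 37 passed with the replicate block, 28 higher and 1 lower with the mitochondrial term, 4 with a pseudocount of 5, 2 at 8-fold, 0 with library totals, 17 higher and 7 lower without DEX3 and 6 without TNFDEX1. None of these runs called a region at the 7 genes.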
